A study of Homo sapiens with 9 samples.

Results

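The genes described are 7 that act in the response of B cells to sphingosine-1-phosphate and related lipid cues: the sphingosine-1-phosphate receptors S1PR1, S1PR2 and S1PR4, the receptors P2RY8 and GPR183, the G-protein subunit GNA13 and the exchange factor ARHGEF1. They were taken by symbol, mapped to Ensembl identifiers, and all 7 were found among the 58243 gene identifiers of each count file. The study sequenced bulk RNA of DOHH2, an established cell line of human transformed follicular lymphoma. It had 9 libraries in 3 groups of 3. The culture group (day 0) was DOHH2 sampled in culture when the mice were grafted. The femur groups were human CD20-positive DOHH2 cells sorted at day 19 or day 40 after grafting from femurs of RAGγc mice, which are immunodeficient. The femurs had been flushed and digested with enzymes, and mouse Cd45 and Ter119 cells had been depleted with beads. Cultured cells did not pass through this handling, so femur residence and handling cannot be told apart in any comparison with culture. All groups are a single cell line, and which culture or animal gave each library is not in the labels. The p-values therefore reflect only how far these samples vary, and that variation may be technical.

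Sphingosine-1-phosphate is abundant in blood and lymph and scarce inside lymphoid tissue, and B cells read this difference through receptors with opposite outputs. S1PR1 couples to inhibitory G proteins and favours exit toward blood and lymph, and CD69 removes it from the cell surface. S1PR2 and P2RY8 instead act through GNA13 and ARHGEF1 to activate RHOA, which holds germinal-centre B cells in place and restrains their growth, and genes of this arm are often mutated in germinal-centre lymphomas. GPR183 follows oxysterols to the outer follicle and is normally low in germinal-centre cells, where BCL6 is high.

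Libraries held between 21071239 and 29456271 counts. The 6 B-cell markers had counts throughout, with summed levels of 3503 to 4459 CPM (a gene's counts relative to its library's TMM-scaled total) in culture, 2276 to 2488 at day 19 and 2691 to 2905 at day 40. Dates in the sample titles put the day 19 libraries 18, 19 and 19 days behind the culture library of their sampling period. They put the day 40 libraries only 11, 26 and 39 days behind it, which goes against the day 40 label for replicates 1 and 2. Some results on day 40 are also given without these libraries and others only with them. A fit without both treats the remaining library as varying like the other groups. Replicate pairs differed by more than sampling noise (chi-square per degree of freedom from 5.54 to 35.6), so no library was counted as a repeat of another.

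S1PR1 and S1PR4 were higher and S1PR2 and P2RY8 lower in femur cells than in culture at both days, while GNA13 and ARHGEF1 passed the test in neither comparison. GPR183 was called higher at both days too, but it passed the filter on low counts only through the day 40 libraries, where it is highest. A gene was called at an adjusted p under 0.05 in edgeR's quasi-likelihood test with Benjamini-Hochberg adjustment over the 15163 genes tested, and all 7 passed the filter on low counts. At day 19, 26.3% of all tested genes were called higher and 26.5% lower (52.8% in all). At day 40 the shares were 23.3% and 23.3% (46.6% in all). The 5 called genes had no overlap between femur and culture libraries, as had 30.6% of all genes in the higher and 31.0% in the lower direction at day 19, and 27.4% and 27.4% at day 40. Between day 40 and day 19, only S1PR2 was called, and it was higher at day 40, where 3.23% of all genes were called higher and 1.45% lower (4.68% in all). S1PR2, S1PR4 and GPR183 had no overlap between these 2 femur groups, as had 14.0% of all genes upward and 12.6% downward. The day 19 and day 40 comparisons use the same culture libraries, so their values are set side by side and are not independent.

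**Figure D1:**
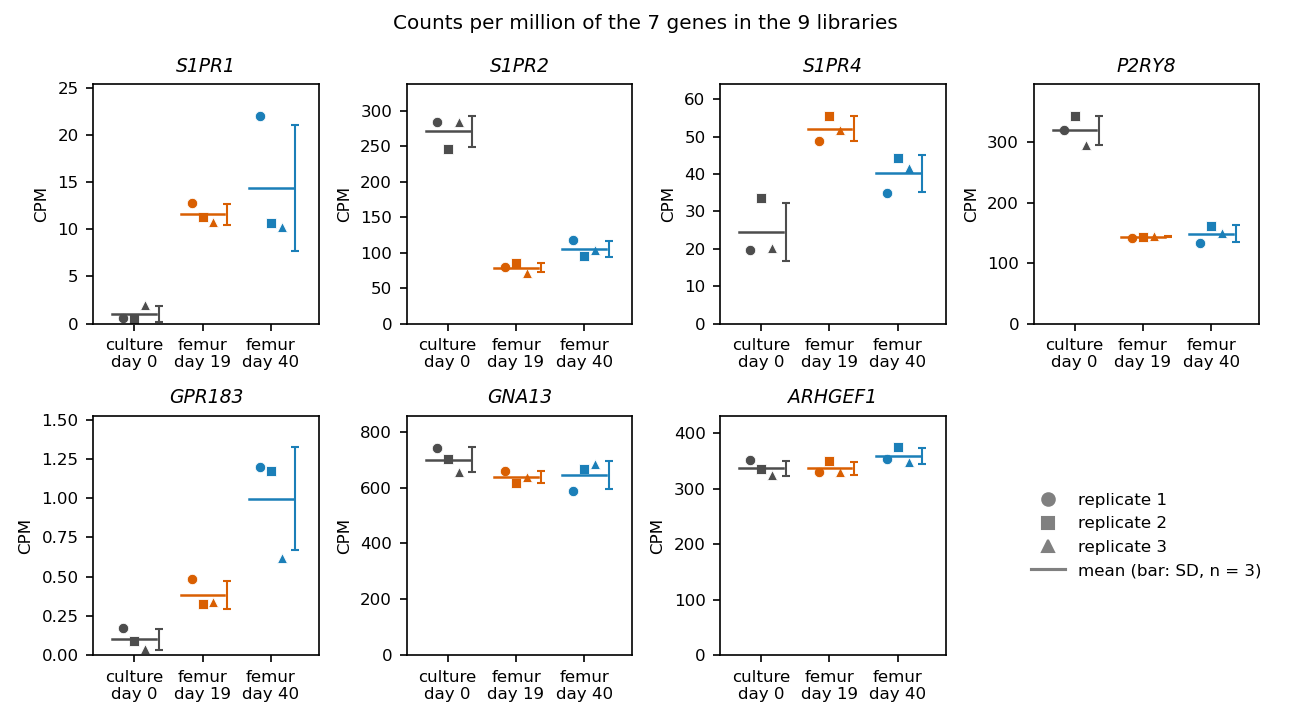
CPM (vertical axes, each starting at 0) of the 7 genes in the 9 libraries, with circles, squares and triangles for replicates 1, 2 and 3, a line at the mean and a bar for the SD of 3 libraries. S1PR1, S1PR4 and GPR183 lie higher and S1PR2 and P2RY8 lower in every femur library than in every culture library, whereas GNA13 and ARHGEF1 overlap.

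The promoter letters of 2 receptors that were higher and 2 that were lower in femur cells are shown. The reason is that KLF2, a factor known to act on S1PR1, was higher in all femur libraries than in culture (its values follow). Each run is the 250 bases before the RefSeq transcript start, read 5′ to 3′ on the gene's strand (RefSeq, GRCh38.p14). Capitals mark CACCC, the core bound by factors of the KLF family, or its reverse complement GGGTG.
S1PR1 (chr1:101236769-101237018, plus strand): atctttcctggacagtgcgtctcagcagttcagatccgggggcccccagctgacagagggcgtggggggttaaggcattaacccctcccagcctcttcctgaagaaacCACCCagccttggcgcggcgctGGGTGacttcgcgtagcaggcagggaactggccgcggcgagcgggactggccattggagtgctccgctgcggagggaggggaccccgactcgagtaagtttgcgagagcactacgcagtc
GPR183 (chr13:99307400-99307649, minus strand): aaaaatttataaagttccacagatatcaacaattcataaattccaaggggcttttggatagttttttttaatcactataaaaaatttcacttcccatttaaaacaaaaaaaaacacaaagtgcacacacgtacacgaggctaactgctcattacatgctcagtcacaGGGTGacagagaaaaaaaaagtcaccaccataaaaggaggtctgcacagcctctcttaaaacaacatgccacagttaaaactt
S1PR2 (chr19:10231332-10231581, minus strand): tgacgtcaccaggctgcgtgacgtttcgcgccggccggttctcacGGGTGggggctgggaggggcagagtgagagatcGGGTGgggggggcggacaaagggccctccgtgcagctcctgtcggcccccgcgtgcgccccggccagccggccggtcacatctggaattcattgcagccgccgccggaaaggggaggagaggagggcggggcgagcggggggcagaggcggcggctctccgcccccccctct
P2RY8 (chrX:1537186-1537435, minus strand): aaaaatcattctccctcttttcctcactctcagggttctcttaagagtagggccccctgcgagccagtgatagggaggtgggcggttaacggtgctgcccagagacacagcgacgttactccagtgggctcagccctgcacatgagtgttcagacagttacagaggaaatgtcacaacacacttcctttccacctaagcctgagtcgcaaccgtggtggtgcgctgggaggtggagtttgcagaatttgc
The S1PR1 run holds 2 matches, which begin 142 and 120 bases before the RefSeq start. GENCODE 29 starts S1PR1 further upstream, so that 154 bases of the run and both matches lie inside the gene as GENCODE annotates it. S1PR2, which was lower, also holds 2, and GPR183 holds 1. The P2RY8 run holds none, and its 1 match in the RefSeq window lies 30 bases after the start. The S1PR4 window holds 6, all inside the gene as GENCODE annotates it. In windows of 300 bases that reach 50 bases past the start, 59.8% of 34796 RefSeq promoters hold at least 1 such match and the median is 1. The runs differ in composition, with 64.4% G and C in S1PR1, 74.0% in S1PR2 and 34.4% in GPR183. TTCCNNGAA, a core of the STAT and BCL6 families that overlaps no CACCC letters, is in 4.46% of the windows, and TGTTTAC, a forkhead core, is in 3.42%. Neither was found on either strand in any window of the 7 genes, which says only that these letters are not there.

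S1PR1 (ENSG00000170989, chr1:101236865-101243713, plus strand, hg38) is the exit receptor, and no annotated gene shares its exons. Its level in the culture libraries was 0.594, 0.455 and 1.98 CPM, from 14, 10 and 51 counts. At day 19 it was 12.8, 11.3 and 10.8 CPM, and at day 40 it was 22.1, 10.7 and 10.3 CPM. Every femur library was above every culture library, and day 40 replicate 1 stood above the other 8 libraries. Mean levels were 1.01 ± 0.841 CPM (SD, n = 3) in culture, 11.6 ± 1.08 at day 19 and 14.4 ± 6.74 at day 40. The level rose 11.2-fold at day 19 (log2 fold change 3.48, SE 0.43, adjusted p = 3.27e-05) and 13.8-fold at day 40 (log2 fold change 3.79, SE 0.43, adjusted p = 2.44e-05). In bulk RNA, a change in the share of cells that express a gene and a change in RNA per cell cannot be told apart.

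The size of the S1PR1 rise depended on culture replicate 3, the culture library with the most S1PR1. Without it the log2 fold changes were 4.43 at day 19 and 4.74 at day 40, and the call stood at each. Between day 40 and day 19 S1PR1 was not called (log2 difference 0.31, 95% interval -0.42 to 1.04, adjusted p = 0.741), and the difference was -0.15 without day 40 replicate 1 and -0.17 without both early-dated libraries. Endothelial cells are known for high S1PR1, and their markers CDH5, KDR, TEK and EMCN were at 0 counts in all 9 libraries. The summed endothelial markers, of which 2 of 6 had any count, were lower in femur (1.61 to 3.12 CPM at day 19, 3.28 to 4.24 at day 40) than in culture (4.42 to 7.6). PECAM1 made up nearly all of that sum, with 420, 153 and 318 counts in culture, day 19 and day 40. Since PECAM1 was highest in the cultured line, the sum is not a measure of endothelial cells. The summed stromal and bone markers, of which 4 of 8 had any count, were higher in femur (4.97 to 7.54 CPM at day 19, 4.38 to 5.29 at day 40) than in culture (0.698 to 1.36), with COL1A2, COL3A1, LUM and CXCL12 at 0 in all libraries. PDGFRB made up most of that sum in femur, where its counts were 349 (day 19) and 283 (day 40) against 3 in culture, while LEPR had 59 and 65 against 68. COL1A1 had 8 and 57 counts against 5, and 39 of the 57 were in day 40 replicate 1. Host cells carried over from the femur would be mouse, and how mouse reads were treated is not given. Counts of these human genes therefore cannot show whether such cells were present. The part of other cells in the result was not tested.

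KLF2, a transcription factor known to activate S1PR1 in lymphocytes, had 0.17, 0.455 and 0.155 CPM in culture. It had 51.2, 49.1 and 50.5 CPM at day 19 and 72.4, 43.6 and 37.1 CPM at day 40. All femur libraries stood above all culture libraries, and day 40 replicate 1 was again the highest. KLF2 rose by 7.61 on the log2 scale at day 19 (SE 0.36, adjusted p = 1.07e-08) and by 7.63 at day 40 (SE 0.36, adjusted p = 1.92e-08). Without culture replicate 2, which held the most KLF2 in culture, these were 8.23 and 8.24. KLF2 had 4, 10 and 4 counts in culture, so it passed the filter on low counts only through the femur libraries, where it is high. Its summed counts gave ratios of 199 (95% interval 126 to 337) and 204 (129 to 344), which cover counting error only. CD69, whose protein takes S1PR1 off the surface, had 0.212, 0.137 and 0.116 CPM in culture, 3.12, 3.82 and 2.62 CPM at day 19 and 18.8, 6.6 and 3.81 CPM at day 40. CD69 also rose at both days, by 4.32 (SE 0.73, adjusted p = 3.49e-04) and 5.94 (SE 0.67, adjusted p = 2.53e-05) on the log2 scale. With 5, 3 and 3 counts in culture, CD69 too passed the filter only through the femur libraries, where it is high. Its summed counts gave ratios of 20.5 (95% interval 11.3 to 41.8) and 64.1 (35.6 to 129). Day 40 replicate 1 carried much of the day 40 level of CD69, since without that library the day 40 rise was 5.03 on the log2 scale, and 4.57 without both early-dated libraries. The same library had 11.3 CPM of the prostaglandin receptor PTGER4, against 2.48 and 2.34 CPM in the other day 40 libraries, and 10.1 CPM of the heat shock gene HSPA1A, against at most 0.127 CPM in the other 8 libraries. PTGER4 and HSPA1A were chosen after their values were seen, and the part of this library's state in the S1PR1 level was not tested.

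**Figure D2:**
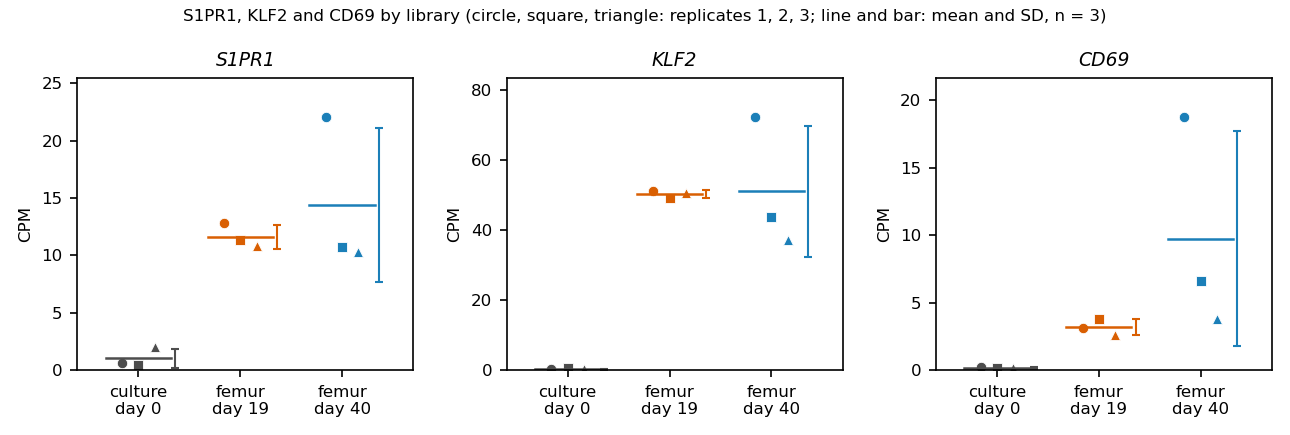
CPM (vertical axes) of S1PR1, KLF2 and CD69 in each library, with symbols for replicates 1, 2 and 3, a line at the mean and a bar for the SD of 3 libraries. All 3 genes are near 0 in culture and higher in every femur library, and day 40 replicate 1 (22.1, 72.4 and 18.8 CPM) is the highest library for each.

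S1PR2 (ENSG00000267534, chr19:10221433-10231331, minus strand, hg38) is the confinement receptor of germinal-centre B cells. Its culture libraries had 284, 246 and 284 CPM. The day 19 libraries had 79.5, 84.7 and 71.7 CPM, and the day 40 libraries had 118, 95.1 and 103 CPM. The 3 groups did not overlap, with culture highest, day 40 between and day 19 lowest. The mean was 271 ± 22.0 CPM (SD, n = 3) in culture, 78.6 ± 6.55 at day 19 and 105 ± 11.9 at day 40. S1PR2 fell 3.45-fold at day 19 (log2 fold change -1.79, SE 0.095, adjusted p = 2.50e-08) and 2.58-fold at day 40 (log2 fold change -1.36, SE 0.094, adjusted p = 3.86e-07).

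Between the femur groups S1PR2 was 1.34-fold higher at day 40 than at day 19 (log2 difference 0.42, SE 0.094, 95% interval 0.22 to 0.63, adjusted p = 0.0233). Of all tested genes, 15.0% had a larger absolute difference. This call was lost without day 19 replicate 1 (adjusted p = 0.0686), day 19 replicate 3 (0.127) or day 40 replicate 1 (0.0918), and without both early-dated day 40 libraries (log2 difference 0.39, adjusted p = 0.281). The log2 difference lay between 0.33 and 0.49 in these and all other settings tried, and adjusted p ranged from 1.15e-05 to 0.281.

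The S1PR2 locus lies in that of DNMT1, the maintenance DNA methyltransferase, on the same strand, and 83 bases (2.278% of S1PR2 exon bases) belong to exons of both. DNMT1 was not called in any comparison, with 785 ± 58.3 CPM (SD, n = 3) in culture, 755 ± 33.9 at day 19 and 770.4 ± 25.2 at day 40. Its log2 differences were -0.055 (adjusted p = 0.549), -0.026 (0.79) and 0.029 (0.906), and the first 2 changed sign, to 0.029 and 0.054, when libraries were scaled by total counts alone. As a share of DNMT1 counts in the same library, S1PR2 was 35.1%, 34.3% and 34.4% in culture, 10.4%, 10.8% and 10.0% at day 19, and 14.8%, 12.7% and 13.4% at day 40. This share needs no scaling between libraries, and its 3 groups did not overlap either.

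S1PR4 (ENSG00000125910, chr19:3172346-3180332, plus strand, hg38) is a receptor for the same lipid that is found mainly on blood and lymphoid cells, and no annotated gene shares its exons. Culture libraries had 19.7, 33.6 and 20.3 CPM. Day 19 libraries had 48.9, 55.6 and 51.8 CPM, and day 40 libraries had 34.8, 44.2 and 41.7 CPM. All femur libraries were above all culture libraries, though culture replicate 2 (33.6) came close to day 40 replicate 1 (34.8). S1PR4 rose 2.13-fold at day 19 (log2 fold change 1.09, SE 0.17, adjusted p = 2.01e-04) and 1.65-fold at day 40 (log2 fold change 0.72, SE 0.17, adjusted p = 0.00444). All day 40 libraries were below all day 19 libraries, but the difference was not called (log2 difference -0.37, 95% interval -0.73 to -0.014, adjusted p = 0.277). It was called without a filter on low counts (adjusted p = 0.00309), in a fit of these 2 groups alone (0.0341) and without culture replicate 2 (0.0215), with adjusted p from 0.00309 to 0.866 over all settings.

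Set against each other per kilobase of exon, the 3 sphingosine-1-phosphate receptors changed in makeup and in total. S1PR2 made up 86.7%, 76.9% and 86.1% of their summed level in the culture libraries, 40.6%, 39.5% and 37.2% at day 19 and 56.4%, 47.7% and 51.1% at day 40. S1PR4 made up 13.2%, 23.0% and 13.5% in culture, 54.8%, 56.8% and 58.9% at day 19 and 36.3%, 48.6% and 45.4% at day 40. For both receptors these shares did not overlap between any pair of groups. S1PR1 made up at most 0.418% in culture and between 3.57% and 7.35% in femur libraries, so it stayed the scarcest of the 3. The ratio of S1PR2 to S1PR1 per kilobase was 687, 774 and 206 in culture, 8.88, 10.8 and 9.54 at day 19 and 7.67, 12.8 and 14.3 at day 40. These values rest on the length used, since by the longest transcript of each gene the ratios were 382, 431 and 115 in culture, 4.94, 6.0 and 5.31 at day 19 and 4.27, 7.12 and 7.98 at day 40, and S1PR1 made up 0.176% to 0.742% of the summed level in culture and 6.06% to 12.2% in femur libraries. Summed levels were 87.8 to 90.5 CPM per kilobase in culture, 52.9 to 58.9 at day 19 and 54.7 to 57.6 at day 40. The remaining receptors of the family were near absent, with 0 counts of S1PR3 and 2 counts of S1PR5 over the 9 libraries.

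**Figure D3:**
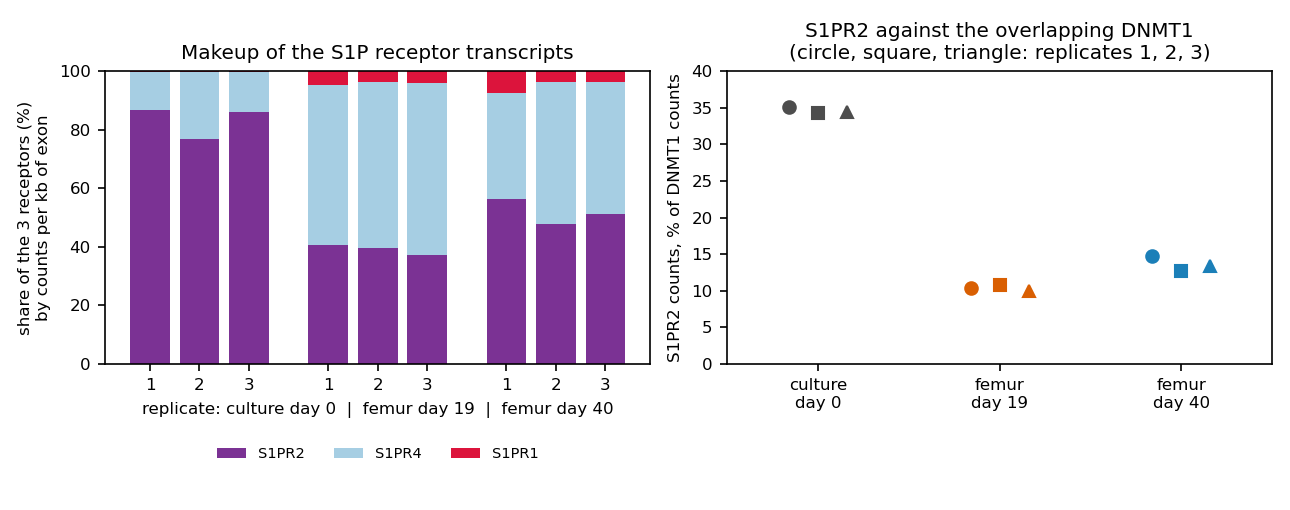
Left, share (%) of S1PR2, S1PR4 and S1PR1 in their summed level per kilobase of exon, as 1 stacked bar per library. Right, S1PR2 counts as a percentage of DNMT1 counts in each library, which lie from 34.3 to 35.1 in culture, 10.0 to 10.8 at day 19 and 12.7 to 14.8 at day 40.

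P2RY8 (ENSG00000182162, chrX:1462572-1537107, minus strand, hg38) is the other receptor that signals through GNA13 to hold B cells in the germinal centre, and its ligand is S-geranylgeranyl-L-glutathione. It lies in the pseudoautosomal region, and the files list no separate Y copy. Culture libraries had 321, 344 and 295 CPM. Day 19 libraries had 142, 144 and 145 CPM, and day 40 libraries had 134, 162 and 150.3 CPM. Every femur library was below every culture library, and the femur groups overlapped. P2RY8 fell 2.23-fold at day 19 (log2 fold change -1.16, SE 0.078, adjusted p = 1.92e-07) and 2.15-fold at day 40 (log2 fold change -1.10, SE 0.078, adjusted p = 5.22e-07). P2RY8 was not called between day 40 and day 19 (log2 difference 0.051, 95% interval -0.12 to 0.22, adjusted p = 0.829), and the difference ran from -0.019 to 0.12 with a library left out.

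GPR183 (ENSG00000169508, chr13:99294530-99307405, minus strand, hg38), the oxysterol receptor, was the scarcest of the 7 genes. It had 4, 2 and 1 counts in culture, 11, 7 and 8 at day 19 and 33, 35 and 15 at day 40, or 0.0999 ± 0.0659, 0.383 ± 0.0877 and 0.995 ± 0.329 CPM (SD, n = 3). The 3 groups did not overlap and stood in the order culture, day 19, day 40. The gene passed the filter on low counts only through its day 40 libraries, and in a fit of day 19 and day 0 alone it was below the filter and not tested. The call was higher at day 19 (log2 fold change 1.91, SE 0.58, adjusted p = 0.0146) and at day 40 (log2 fold change 3.28, SE 0.49, adjusted p = 2.16e-04). Summed counts gave ratios of 3.9 (95% interval 1.65 to 10.7) and 10.3 (4.8 to 26.5), which cover counting error only.

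The day 19 call of GPR183 was lost without culture replicate 3 (adjusted p = 0.0601) or day 19 replicate 1 (0.0537), over a range from 0.00967 to 0.0601. Without culture replicate 1 the log2 fold changes were 2.51 at day 19 and 3.89 at day 40. Between day 40 and day 19 the log2 difference was 1.38 (SE 0.39, adjusted p = 0.0699), which was not called. With the sampling period as a block it was 1.35 and called (adjusted p = 0.0461). In that fit 2 of the 7 genes were called higher, as were 652 of all 15163 tested genes, with 314 called lower. GPR183 was also called without a filter (0.0296) and without day 40 replicate 3 (0.039). Without both early-dated day 40 libraries the difference was 0.68 (adjusted p = 0.899) and the day 40 rise over culture was 2.57 on the log2 scale. GPR183 lies inside UBAC2 on the opposite strand with no shared exon, and UBAC2 had log2 differences of 0.22, 0.15 and -0.069, none called.

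GNA13 (ENSG00000120063, chr17:65010715-65056839, minus strand, hg38), the G-protein subunit that relays S1PR2 and P2RY8, had 743, 702 and 654 CPM in culture. It had 659, 615 and 636 CPM at day 19 and 587, 665 and 684 CPM at day 40. The groups overlapped in every comparison. The log2 difference from culture was -0.14 at day 19 (95% interval -0.30 to 0.033, adjusted p = 0.16) and -0.12 at day 40 (-0.29 to 0.051, adjusted p = 0.235), so a fall beyond 0.30 lies outside both intervals.

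ARHGEF1 (ENSG00000076928, chr19:41883161-41930150, plus strand, hg38), the exchange factor that GNA13 activates to load RHOA with GTP, had 352, 336 and 325 CPM in culture. It had 329.9, 350.0 and 331 CPM at day 19 and 353, 375 and 348 CPM at day 40. These groups overlapped too. The log2 difference from culture was -0.002 at day 19 (95% interval -0.14 to 0.13, adjusted p = 0.979) and 0.087 at day 40 (-0.048 to 0.22, adjusted p = 0.27). Scaling by total counts alone gave 0.086 and 0.17, of which the second was called (adjusted p = 0.0466). The femur groups differed by 0.019 for GNA13 (adjusted p = 0.945) and 0.090 for ARHGEF1 (adjusted p = 0.548) on the log2 scale. AC010616.1 lies inside ARHGEF1, and AC037487.2 inside GNA13, each on the opposite strand with no shared exon.

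**Figure D4:**
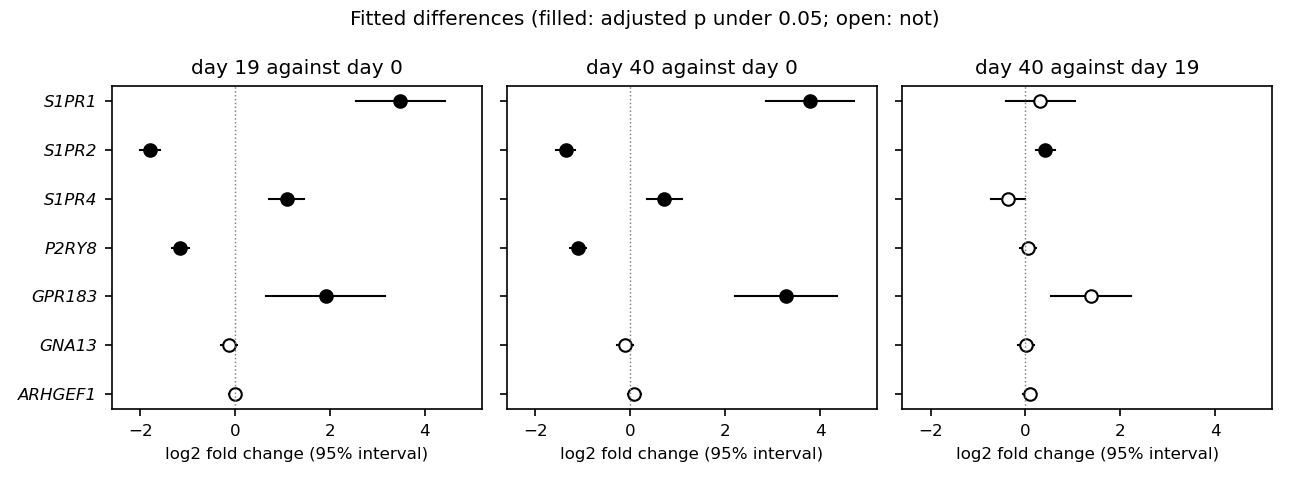
Fitted log2 fold change (horizontal axes) with its 95% interval for the 7 genes in the 3 comparisons, filled where the adjusted p was under 0.05. The receptors lie away from 0 in both comparisons with culture, while GNA13 and ARHGEF1 lie within 0.14 of it.

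Among the 7 genes, GNA13 had the highest level per kilobase of exon in every group, at 137, 125 and 126 CPM per kilobase in culture, day 19 and day 40. In culture S1PR2 (74.5) and P2RY8 (71.8) came next and overlapped, followed by ARHGEF1 (39.1), S1PR4 (14.7), S1PR1 (0.193) and GPR183 (0.0587), the last 2 overlapping. At day 19 ARHGEF1 (39.0 CPM per kilobase) stood second, P2RY8 (32.2) and S1PR4 (31.3) overlapped, and S1PR2 (21.6) had dropped below them, ahead of S1PR1 (2.23) and GPR183 (0.225). At day 40 ARHGEF1 (41.5) was again second, and P2RY8 (33.4), S1PR2 (28.9) and S1PR4 (24.2) overlapped each with its neighbour, above S1PR1 (2.75) and GPR183 (0.585). The place of ARHGEF1 rests on the length used, since by its longest transcript it had 98.1 CPM per kilobase in culture and stood above S1PR2 and P2RY8.

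Few enzymes and transporters of the sphingosine-1-phosphate and oxysterol ligands were called. Of 17 genes listed, 10 were tested, with 1 called higher and 1 lower at day 19, none at day 40, and 1 higher between day 40 and day 19. Over all tested genes, 26.3% were called higher and 26.5% lower at day 19, and 23.3% and 23.3% at day 40. Between day 40 and day 19 these shares were 3.23% and 1.45%. SGPP1, a phosphatase that removes the phosphate of sphingosine-1-phosphate, fell at day 19 (log2 fold change -0.85, adjusted p = 2.34e-04) and was higher at day 40 than at day 19 (0.65, adjusted p = 0.0164). The second call was lost without day 19 replicate 2 (adjusted p = 0.0918) or 3 (0.0863), day 40 replicate 1 (0.065) or 2 (0.0593), or both early-dated libraries (0.419). SPHK2, a kinase that makes sphingosine-1-phosphate, rose by 0.22 on the log2 scale at day 19 (adjusted p = 0.0313), a call lost without culture replicate 1 or 3 or day 19 replicate 2 or 3 (adjusted p from 0.0755 to 0.117). SPHK2 shares exon bases with DBP and RPL18 on the opposite strand, and the strand setting of the counts is not known. CH25H, which starts the making of the GPR183 ligand, had 1 count and CYP7B1, which completes it, had 0 counts over the 9 libraries. The exporter SPNS2 was not called, with 5.77 ± 2.12 CPM (SD, n = 3) in culture and 6.82 ± 0.376 and 7.24 ± 0.537 at day 19 and day 40.

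Of 9 genes listed for the P2RY8 ligand, 7 were tested, and 2 were called higher and 1 lower at day 19, and 3 higher and 1 lower at day 40. The shares over all tested genes were 26.3% higher and 26.5% lower at day 19, and 23.3% and 23.3% at day 40. ABCC1, which exports the ligand, had 116 ± 0.72 CPM (SD, n = 3) in culture, 164 ± 12.6 at day 19 and 136 ± 10.3 at day 40. It rose by 0.49 (adjusted p = 1.39e-04) and 0.23 (adjusted p = 0.0231) on the log2 scale, and the day 40 call was lost without culture replicate 1 or 3 or day 40 replicate 2 or 3 (adjusted p from 0.0557 to 0.103). GGT5, which breaks the ligand down, had 2 counts in culture, both in replicate 1, and 65 and 49 counts in the femur groups, for ratios of 34.2 (95% interval 9.08 to 288) and 21.4 (5.6 to 181). Its related gene GGT1 rose at day 40 (log2 fold change 1.31, adjusted p = 0.00199). At day 19 GGT1 was not called (0.55, adjusted p = 0.116), but it was with the sampling period as a block (0.53, adjusted p = 0.0361). It was also called at day 19 without day 19 replicate 3 (0.76, adjusted p = 0.0442). MGST2, a glutathione transferase, fell at both days (-1.05, adjusted p = 7.62e-04, and -0.86, adjusted p = 0.00321). No gene of the list was called between day 40 and day 19, but with the sampling period as a block GGT1 was higher (0.75, adjusted p = 0.0275) and ABCC1 lower (-0.27, adjusted p = 0.0278). Without both early-dated day 40 libraries the day 40 calls of GGT1 (adjusted p = 0.131) and MGST2 (0.111) were lost.

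Other lipid receptors moved in both directions. Of 22 listed, 13 were tested, with 5 higher and 5 lower at day 19 and 6 higher and 5 lower at day 40. Over all tested genes, the shares were 26.3% higher and 26.5% lower at day 19, and 23.3% and 23.3% at day 40. The counts of higher genes include CYSLTR1 and CYSLTR2, which passed the filter on low counts only through the femur libraries. CYSLTR1, a receptor for cysteinyl leukotrienes, had 2 counts in culture against 336 and 311 in the femur groups, for ratios of 177 (95% interval 48.5 to 1464) and 136 (37.2 to 1124). P2RY10, a lysophosphatidylserine receptor, rose by 1.84 (adjusted p = 8.45e-06) and 1.75 (adjusted p = 2.02e-05) on the log2 scale, and GPR18 rose by 1.10 (adjusted p = 7.83e-04) and 1.26 (adjusted p = 3.88e-04). GPR18 lies in the same UBAC2 locus as GPR183. PTAFR, the receptor for platelet-activating factor, fell by 2.52 (adjusted p = 7.76e-05) and 1.95 (adjusted p = 4.28e-04), and at day 40 it fell by 2.84 without both early-dated libraries. LPAR5, a receptor for lysophosphatidic acid, fell by 0.76 (adjusted p = 5.72e-05) and 0.29 (adjusted p = 0.0299). LPAR5 was the 1 gene of the list called between day 40 and day 19, where it was 0.47 higher (adjusted p = 0.0187), and that call was lost without day 19 replicate 2 or 3 (0.106 each), day 40 replicate 2 (0.0852) or both early-dated libraries (0.405).

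Of 19 other G-protein subunits listed, 13 were tested, with 3 higher and 4 lower at day 19, 2 higher and 3 lower at day 40, and none between the femur groups by the edgeR test. All tested genes had 26.3% higher and 26.5% lower at day 19, 23.3% and 23.3% at day 40, and 4.68% called between the femur groups. GNG7, a gamma subunit, rose by 0.74 (adjusted p = 6.98e-04) and 0.41 (adjusted p = 0.0263) on the log2 scale, with femur and culture libraries overlapping at day 40. GNG5, another gamma subunit, fell by 0.68 (adjusted p = 5.89e-05) and 0.55 (adjusted p = 4.35e-04), and GNAS, the stimulatory alpha subunit, fell by 0.29 at each (adjusted p = 0.00546 and 0.00683). GNAI3, an inhibitory alpha subunit of the kind S1PR1 uses, fell by 0.39 (adjusted p = 0.0013) and 0.22 (adjusted p = 0.0365). The nearest relative of GNA13, GNA12, was not called, with 80.6 ± 9.02 CPM (SD, n = 3) in culture, 76.8 ± 1.09 at day 19 and 74.8 ± 7.69 at day 40. The day 40 calls of GNG7 and GNAS were lost without both early-dated libraries, and so was that of GNAI3 or GNG5. That of GNG7 was also lost without culture replicate 1 or 3 or day 40 replicate 2 or 3 (adjusted p from 0.0527 to 0.116).

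The desensitisation list holds genes that switch receptors off or take them from the surface, and also RIC8A and RIC8B, which are chaperones of G-protein alpha subunits. Of 12 listed, 10 were tested, with 7 higher and 2 lower at day 19 and 5 higher and 2 lower at day 40. Of all tested genes, 26.3% were higher and 26.5% lower at day 19, and 23.3% and 23.3% at day 40. RIC8B is 1 of the 7 listed genes called higher at day 19. The list's median log2 fold change was 0.46 at day 19 and 0.30 at day 40, beside 0.013 and 0.015 over all tested genes. These counts and medians include CD69 and DNM1, which passed the filter on low counts only through the femur libraries. DNM1 had 7, 7 and 7 counts in culture and was called higher only at day 19. GRK2 rose by 0.48 (adjusted p = 1.57e-04) and 0.24 (adjusted p = 0.0153), and GRK5 rose by 0.86 (adjusted p = 1.35e-04) and 0.91 (adjusted p = 1.22e-04); both are kinases that mark active receptors for arrest. GRK6, a kinase of the same family, instead fell by 0.57 (adjusted p = 9.23e-05) and 0.38 (adjusted p = 0.00236). ARRB2, an arrestin, rose by 0.45 (adjusted p = 9.39e-05) and 0.36 (adjusted p = 6.12e-04). CD69 is on this list and was not called between day 40 and day 19 (log2 difference 1.62, adjusted p = 0.0634), but was called with the sampling period as a block (1.36, adjusted p = 0.024), and its difference was 0.72 without day 40 replicate 1 (adjusted p = 0.237) and 0.27 without both early-dated libraries (0.948).

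All 14 listed transcription factors that are known to act on these genes were tested, with 6 higher and 5 lower at each day, and 3 higher and 1 lower between day 40 and day 19. The shares of all tested genes were 26.3% higher and 26.5% lower at day 19, and 23.3% and 23.3% at day 40. They were 3.23% and 1.45% between day 40 and day 19. BCL6, the repressor that defines germinal-centre B cells, had 428 ± 38.1 CPM (SD, n = 3) in culture, 58.2, 52.8 and 57.2 CPM in the day 19 libraries, and 135 ± 3.89 CPM at day 40. It fell by 2.93 (adjusted p = 1.68e-10) and 1.67 (adjusted p = 1.27e-08) on the log2 scale and was 1.26 higher at day 40 than at day 19 (adjusted p = 5.34e-06). MEF2C, a factor of the germinal-centre programme, fell by 1.85 (adjusted p = 3.49e-08) and 1.22 (adjusted p = 1.82e-06) and was 0.63 higher at day 40 than at day 19 (adjusted p = 0.00394). FOXO1, a forkhead factor, fell by 0.87 (adjusted p = 1.48e-06) and 0.34 (adjusted p = 0.00247) and was 0.52 higher at day 40 than at day 19 (adjusted p = 0.0017). BCL6, MEF2C, FOXO1 and S1PR2 had the same order of groups, with culture highest and day 19 lowest. P2RY8, MEF2B, LPAR5 and GNAI3, among others, also had this order of means, and its share over all genes was not counted. TCF3 rose at both days (0.74, adjusted p = 7.18e-06, and 0.35, adjusted p = 0.003) and was lower at day 40 than at day 19 (-0.40, adjusted p = 0.0108). Between the femur groups the calls of MEF2C (adjusted p = 0.169), FOXO1 (0.155) and TCF3 (0.409) were lost without both early-dated libraries, and that of TCF3 without day 19 replicate 2 (0.0651) or 3 (0.0606) or day 40 replicate 1 (0.0518).

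**Figure D5:**
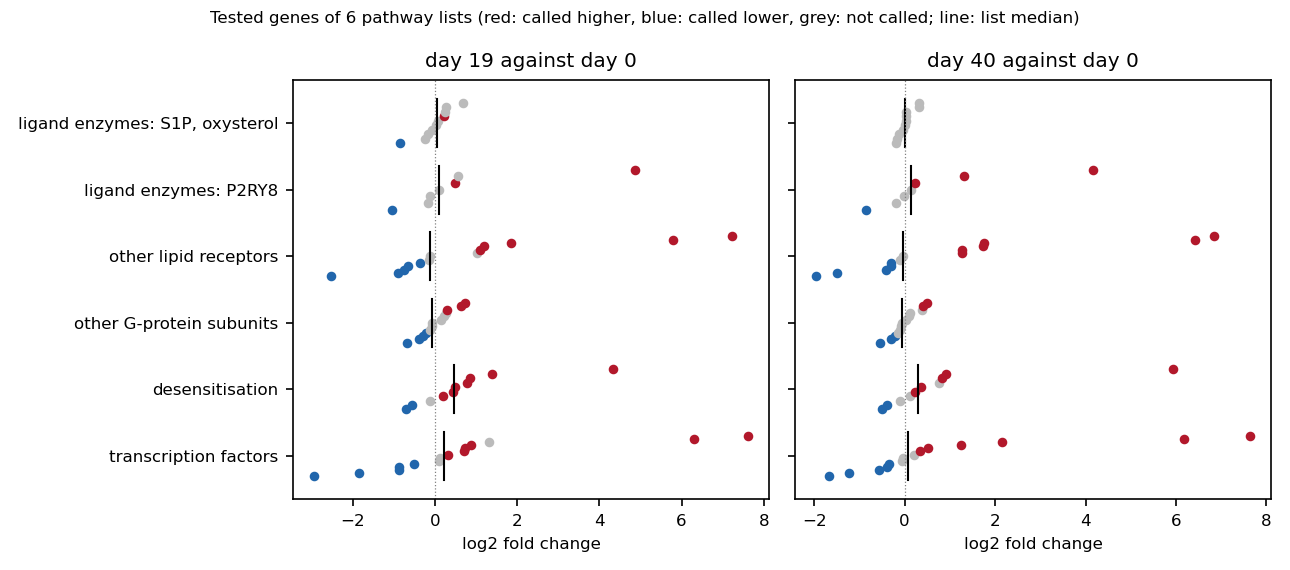
Fitted log2 fold change (horizontal axes) of the tested genes of the 6 lists at day 19 and day 40 against day 0, red where called higher, blue where called lower and grey where not called, with a line at each list's median. The medians lie between -0.13 and 0.46; the far right points are genes with few or no culture counts, whose fitted values are not bounds.

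Medians of the other lists lay between -0.13 and 0.22 at day 19 and between -0.059 and 0.15 at day 40. CYSLTR2 had no culture counts, so only a lower bound can be given, with the culture group as a whole set to 3 counts. CYSLTR2 was at least 6.66-fold higher at day 19 and at least 10.5-fold at day 40. These bounds lie above the list's medians, which they leave as given.

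The genes most like each of the 7 were sought by the root mean square difference of log2 CPM over the 9 libraries, each gene centred on its own mean, among genes with a mean of at least 5 CPM. For S1PR1 they were IRF1 (difference 0.544) and UTRN (0.551), for GPR183 OAS3 (0.393) and ARMH1 (0.404), and for S1PR4 TRAM1 (0.122) and ZNF608 (0.131). For S1PR2 they were AC010616.1 (0.118), which is the gene inside ARHGEF1, and RRM2B (0.122). AC010616.1 had 32.4, 10.6 and 13.0 CPM in culture, day 19 and day 40, so it fell while the surrounding ARHGEF1 was not called. For P2RY8 the most alike were SEPHS2 (0.0849) and CCDC24 (0.0861), for GNA13 PPP6C (0.0362) and WDR41 (0.0373), and for ARHGEF1 AP2B1 (0.0367) and SLC25A15 (0.0423). The scarce genes S1PR1 and GPR183 had the poorest matches.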

How the data were processed

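Bulk RNA-seq was measured in 9 DOHH2 libraries, grouped by the sampling day in the labels. The authors deposited raw counts per gene for each library. Per the submitters' processing notes, the authors used FastQC 0.11.5, STAR 2.5.2a with hg38, featureCounts 1.4.6 and DESeq2 1.40.1. Not given in the sources used here are the annotation, the strand setting and how multimapping and mouse reads were treated.

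Symbols came from GENCODE 29 for 57980 of 58243 identifiers, with 263 unnamed. In R 4.3.3 with edgeR 4.0.16, filterByExpr kept 15163 genes, TMM set the scaling, and a two-sided quasi-likelihood F-test was run over all 9 libraries with a coefficient per group. Some genes with few culture counts passed this filter only through femur libraries, among them KLF2, CD69, DNM1, IRF4, GGT5, CYSLTR1 and CYSLTR2. The counts of called genes and the medians of the lists include them. Adjusted p-values are Benjamini-Hochberg over all tested genes, called under 0.05. Intervals of fold changes use the fit's residual degrees of freedom, and intervals of count ratios and the floor of 3 counts for a group at 0 cover counting error only. The procedure was tested on simulated data. Alternatives were other scalings, no filter, DESeq2 1.42.0, voom in limma 3.58.1, fits of 2 groups, a block for the sampling period, and each library left out.

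The 7 genes and the 6 lists (93 genes) were chosen with earlier results of these data known. Genes named with values were the 7, up to 4 per list and comparison with the smallest p, other listed genes by level or count, the 2 most alike for each, and genes that overlap them. Promoters are from RefSeq (GRCh38.p14). One further list and 1 marker gene are not reported here.

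The labels carry no replicate numbers, so these follow accession order, and title dates assign each number to a sampling period. Deviations from the group means of same-period day 19 and day 40 libraries correlated from 0.101 to 0.305, against -0.184 to 0.0656 for other pairs. The main fit held no term for the period, so all its comparisons are unpaired. A block for the period was run as an alternative, and the blocked value is given where it changes a call.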

Additional observations from a re-analysis of the deposited data

Results flagged for a closer look

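S1PR2 differed between the femur groups in its distance from the same culture libraries. The day 40 effect was 0.42 higher than the day 19 effect on the log2 scale (edgeR test of the difference, adjusted p = 0.0233), with 118, 95.1 and 103 CPM at day 40 and 79.5, 84.7 and 71.7 CPM at day 19, so that 3 of 3 libraries were higher. The call does not stand without both early-dated day 40 libraries (adjusted p = 0.281). The S1PR2 call was also lost when day 19 replicate 1, day 19 replicate 3 or day 40 replicate 1 was left out. Of all tested genes, 14.0% were likewise higher in every day 40 library than in every day 19 library. Groups of 3 libraries were not tested for single outlying samples.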

How the results depend on the processing

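The 5 receptors kept their direction against culture in every alternative run, and all calls but that of GPR183 at day 19 (log2 1.49 to 2.51 with a library left out) held. GPR183 was not tested in the 2-group fit of day 19 and day 0. Over the 7 genes and 3 comparisons, 323 of 349 alternative values kept direction and call, 6 lost the call, 7 gained it and 13 changed sign. Both day 40 libraries of early date were left out as an alternative chosen after seeing the data, which leaves 1 day 40 library assumed to vary like the other groups. The cause of the changes was not tested. Low counts limit GPR183 most, since its culture group holds 7 counts in all. A separate run for a Y copy of P2RY8 was not made because the files list none.

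ARHGEF1 at day 19 was 0.001 with RLE size factors, with DESeq2 and in the 2-group fit, 0.086 with total library size, and -0.046 to 0.028 with a library left out. DNMT1 with total library size was 0.029 at day 19 and 0.054 at day 40, and between the femur groups it was -0.007 to 0.056 with a library left out. At day 40 PLPP1 was -0.25 to 0.078 and SGPP1 -0.33 to 0.001 with a library left out. ARHGEF1 at day 40 was called only with total library size (0.17). Between day 40 and day 19, S1PR1 was -0.17 without both early-dated libraries and -0.15 to 0.49 with a library left out, P2RY8 -0.019 to 0.12 and GNA13 -0.024 to 0.085. S1PR2 was 0.39 and not called without both early-dated libraries and 0.33 to 0.49 with a library left out. S1PR4 was -0.37 and called without a filter and in the 2-group fit, and -0.45 to -0.28 with a library left out. GPR183 was called without a filter (1.38) and 1.23 to 1.62 with a library left out.

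The replicate block for the sampling period called GPR183 between day 40 and day 19 (1.35), so 2 of the 7 genes were called higher in place of 1, and it called 1 gene of the P2RY8 ligand list higher, 1 lower and 1 of the desensitisation list higher in place of 0. Between day 40 and day 19 that fit called 652 of all 15163 tested genes higher and 314 lower. The block changed no call of the 7 genes against culture. There same-period correlations were -0.05 to 0.118 at day 19 (other pairs -0.137 to 0.0868) and 0.0809 to 0.202 at day 40 (other pairs -0.2 to 0.015). Between day 40 and day 19 without a filter, 2 of the 7 genes were called higher and 1 lower. Of all 30854 genes tested in that fit, 890 were called higher and 434 lower. The 2-group fit called 1 lower, beside 396 of all 14807 genes it tested. Without both early-dated libraries the S1PR2 call was lost. With a library left out, 0 to 2 were called higher and 0 to 1 lower.

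Total library size as the only scaling moved all calls at day 40 from 3527 higher and 3538 lower to 4155 and 2650 (from 49.9% to 61.1% higher). Without both early-dated libraries 2035 genes were called higher and 2030 lower at day 40, and 82 and 17 between day 40 and day 19 in place of 490 and 220. That comparison gave 890 and 434 without a filter, 360 lower with DESeq2, 396 lower in the 2-group fit, and 217 to 755 higher and 63 to 438 lower with a library left out.

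List counts at day 40 against culture changed as follows. Without a filter, the sphingosine-1-phosphate and oxysterol list had 1 higher and 1 lower. With total library size, the lipid receptors had 3 lower and the G-protein subunits 4 higher. Without both early-dated libraries, the P2RY8 ligand list had 0 lower, the lipid receptors 2 lower, the G-protein subunits 0 higher and 1 lower, and the desensitisation list 1 lower. Between day 40 and day 19 without a filter, the P2RY8 ligand list had 1 higher and 1 lower, the lipid receptors 2 higher, the G-protein subunits 1 lower, the desensitisation list 1 higher and the transcription factors 5 higher. DESeq2 called 1 lower in the P2RY8 ligand list and 1 lower in the desensitisation list, and the 2-group fit called 1 lower in the desensitisation list. Without both early-dated libraries, the sphingosine-1-phosphate and oxysterol list and the lipid receptors had 0 higher, and the transcription factors 1 higher and 0 lower.

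With a library left out, the sphingosine-1-phosphate and oxysterol list had 0 to 3 higher and 1 to 2 lower at day 19, 0 to 1 higher at day 40 and 0 to 1 higher between the femur groups. The P2RY8 ligand list had 1 to 2 lower at each day and 0 to 1 lower between them, and the lipid receptors had 2 to 5 lower at day 40 and 0 to 1 higher between them. The G-protein subunits had 0 to 3 higher at day 40. Between the femur groups the desensitisation list had 0 to 1 higher and 0 to 1 lower and the transcription factors 0 to 1 lower. In the order of levels per kilobase, the longest transcript moved 2 of 21 places by more than 1 rank, ARHGEF1 in culture to rank 2 and S1PR2 in culture to rank 4.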

Other observations

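Markers of T cells were low and moved between the groups. Their summed level was 21.9 to 28.9 CPM in culture, 6.52 to 7.99 at day 19 and 15.5 to 18.2 at day 40, with CD2 at 0 in all 9 libraries. TRAC made up most of this sum, with 1512, 414 and 1269 counts in culture, day 19 and day 40. Since TRAC was highest in the cultured B-cell line, the sum is not a measure of T cells. Of the 6 myeloid markers, 4 had counts, with summed levels of 2.63 to 5.0 CPM in culture, 4.98 to 6.29 at day 19 and 2.87 to 5.69 at day 40. LYZ made up most of these, with 280, 328 and 321 counts. ITGAM had 0, 16 and 30 counts and CD14 2, 25 and 22 counts in culture, day 19 and day 40. S100A8 and S100A9 and the erythroid markers HBB and HBA2 were at 0 in all 9 libraries. Host cells would be mouse, so these counts of human genes cannot show whether any were present.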
